A study of Mus musculus with 11 samples.

Results

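The 44 genes described here build the DNA replication machinery: they license origins, activate the replicative helicase, and run and close the replication fork. They were taken by their mouse symbol from the annotation of the genome build of the deposited counts (NCBIM37), and all 44 were found among 37991 counted gene IDs. They fall into 13 roles, from the origin recognition complex to chromatin assembly behind the fork. All 44 passed the filter on low counts in each of 3 comparisons, so none is missing below.

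RNA-Seq counts came from bone marrow hematopoietic stem cells (HSC) of C57BL/6 mice that were 8 weeks old, sorted as Lin-, CD48-, c-Kit+, Sca1+, CD135- and CD150+ cells, with 1000 cells behind each library. Control HSC (4 libraries) were wild type by their labels. The study's methods call them littermates, and its controls in other experiments carried the NA10hd LSL allele without Vav-Cre. NA10hd HSC (4 libraries) expressed the NUP98-HOXA10HD fusion from the ROSA26 locus behind a loxP-stop-loxP cassette opened by Vav-Cre. NV HSC (3 libraries) carried one NrasG12D allele behind such a cassette, opened by the same Vav-Cre. Vav-Cre acts in blood cells of all lineages and is not restricted to HSC, so the sorted cells descend from a marrow in which other cells carry the allele too. The study calls the libraries of a group biological replicates, and the labels do not say which mice each library came from, so p-values measure the spread between these samples.

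In the G1 phase, the origin recognition complex with Cdc6 and Cdt1 loads the MCM2-7 ring onto DNA, and geminin blocks Cdt1 so that an origin is licensed once per cycle. At the start of S phase, the Cdc7-Dbf4 kinase, Mcm10, Cdc45 and the GINS complex turn the loaded ring into an active helicase. Polymerase alpha-primase lays primers, polymerases epsilon and delta extend them with the PCNA clamp and its loader, replication protein A covers single strands, DNA ligase I joins the fragments, and chromatin assembly factor 1 deposits histones. Many of these genes are known targets of E2F factors, which act at the passage from G1 to S phase. HSC in adult marrow are mostly quiescent, and quiescent cells hold little of this machinery.

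Promoters are shown first, since a shared sequence feature is a property of these genes that their choice did not use. RefSeq promoter windows (build GRCm38.p6, which differs from the build of the counts, 250 bases before to 50 after a start) held 36 of the 44 genes. Each window was searched on both strands for the 8-letter E2F sequences TTTCCCGC, TTTCGCGC, TTTGCCGC and TTTGGCGC. A match was held by 15 of the 36 genes (41.7%), by 2.6% of all 27025 genes with a window, and by 4.83% of the 8763 tested genes with one. The 15 genes were Orc1, Orc3, Cdc6, Cdt1, Mcm3, Mcm5, Mcm6, Mcm7, Gins3, Pola1, Pold1, Pold3, Pole2, Rfc3 and Lig1. They held 21 matches, 14 of them in the last 100 bases of the window, which is the part around the start. The CCAAT box (CCAAT) was in 61.1% of the 36 genes and 43.0% of tested genes, and the GC box (GGGCGG) in 80.6% and 68.9%. A match is a description of letters and not a bound site. The stretches below show the matches in capitals, where overlapping matches run together, for a helicase subunit with a single cluster (Mcm5), a helicase subunit with matches at separate places (Mcm6) and the first origin subunit (Orc1). Mcm10, with the largest fold change between NV and control of the 44 genes, is shown beside them. Its window held no whole match, but it ended in the first 7 of the 8 letters of TTTGGCGC, past the 250 bases printed, so a match across the window's edge is not settled by this search. They are the 250 bases before the start, 5′ to 3′, of Mcm5 (chr8:75109259-75109508, plus strand), Mcm6 (chr1:128359706-128359955, minus strand), Orc1 (chr4:108579204-108579453, plus strand) and Mcm10 (chr2:5012792-5013041, minus strand).

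Mcm5: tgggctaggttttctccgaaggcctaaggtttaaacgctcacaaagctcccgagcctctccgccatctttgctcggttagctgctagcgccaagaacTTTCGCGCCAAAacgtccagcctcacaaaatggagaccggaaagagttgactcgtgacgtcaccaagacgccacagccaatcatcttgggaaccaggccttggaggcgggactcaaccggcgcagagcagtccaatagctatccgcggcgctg
Mcm6: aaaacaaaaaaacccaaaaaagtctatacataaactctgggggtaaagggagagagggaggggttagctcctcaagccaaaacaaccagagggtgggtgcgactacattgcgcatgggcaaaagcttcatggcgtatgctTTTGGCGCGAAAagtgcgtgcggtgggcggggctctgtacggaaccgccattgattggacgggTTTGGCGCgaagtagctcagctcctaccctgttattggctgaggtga
Orc1: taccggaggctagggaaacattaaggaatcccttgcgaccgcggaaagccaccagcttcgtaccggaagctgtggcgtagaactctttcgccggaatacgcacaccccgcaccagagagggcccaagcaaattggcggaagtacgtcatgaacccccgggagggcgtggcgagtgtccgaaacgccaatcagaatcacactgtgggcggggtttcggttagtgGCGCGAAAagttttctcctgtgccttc
Mcm10: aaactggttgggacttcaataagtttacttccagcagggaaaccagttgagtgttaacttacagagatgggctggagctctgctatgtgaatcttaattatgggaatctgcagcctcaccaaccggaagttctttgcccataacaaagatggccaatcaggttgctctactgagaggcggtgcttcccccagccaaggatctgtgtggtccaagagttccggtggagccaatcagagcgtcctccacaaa

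A match past the start was held by 8 genes, and for 5 of them, which are described further below, 30 bases around the first match are given: Cdt1 (chr8:122568035-122568064, plus strand), Lig1 (chr7:13278841-13278870, plus strand), Mcm3 (chr1:20820275-20820304, minus strand), Pold1 (chr7:44548766-44548795, minus strand) and Pole2 (chr12:69228162-69228191, minus strand). They show the same core letters in both orientations, and Mcm3 held a second match just past the stretch shown.

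Cdt1: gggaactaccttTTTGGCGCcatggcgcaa
Lig1: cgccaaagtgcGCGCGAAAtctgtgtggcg
Mcm3: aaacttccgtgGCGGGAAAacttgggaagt
Pold1: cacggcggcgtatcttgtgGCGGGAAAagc
Pole2: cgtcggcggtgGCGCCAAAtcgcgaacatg

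Totals ranged from 5464815 to 14283008 counts per library with a median of 10639180. Gene positions are those of NCBIM37. Levels are given as CPM, counts scaled to a common library size with TMM factors, and fold changes on the log2 scale with their standard error (SE) from edgeR. A gene was called at a Benjamini-Hochberg adjusted p under 0.05 over all tested genes and a fold change above 1.5. NA10hd replicates 1 and 4 had the fewest genes with a count (14430 and 13859, against 15361 to 15900 in the other 9), and the part of this in their low values was not tested. The groups differed in sex. NA10hd replicates 1 to 3 and control replicates 1 and 4 held male RNA only, NA10hd replicate 4 female RNA only, and all other libraries both. The 10 HSC-defining markers (among them Kit, Ly6a, Slamf1 and Procr) were detected in every library, and their summed level was 2099 to 2569 CPM in NV, 2516 to 3164 CPM in control and 2898 to 3592 CPM in NA10hd HSC. In these bulk libraries, a smaller share of cells in S phase and less RNA per cell cannot be told apart.

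Summed over the 44 genes, replication transcripts took 5388 to 5861 CPM in NV, 3431 to 3958 CPM in control and 2374 to 2909 CPM in NA10hd HSC. The 3 ranges did not overlap. The mean log2 difference of the 44 genes from the control mean was -0.57 ± 0.055 (SD, n = 4, from -0.62 to -0.50) in NA10hd and 0.65 ± 0.086 (SD, n = 3, from 0.55 to 0.72) in NV, against a spread of 0.082 (SD, n = 4) in control. Each NV library had 40 to 41 of the 44 genes above their control mean, each control library 17 to 29 and each NA10hd library 4 to 9. The sums are a description of these libraries and were given no test, and the single genes were tested as follows.

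**Figure D1:**
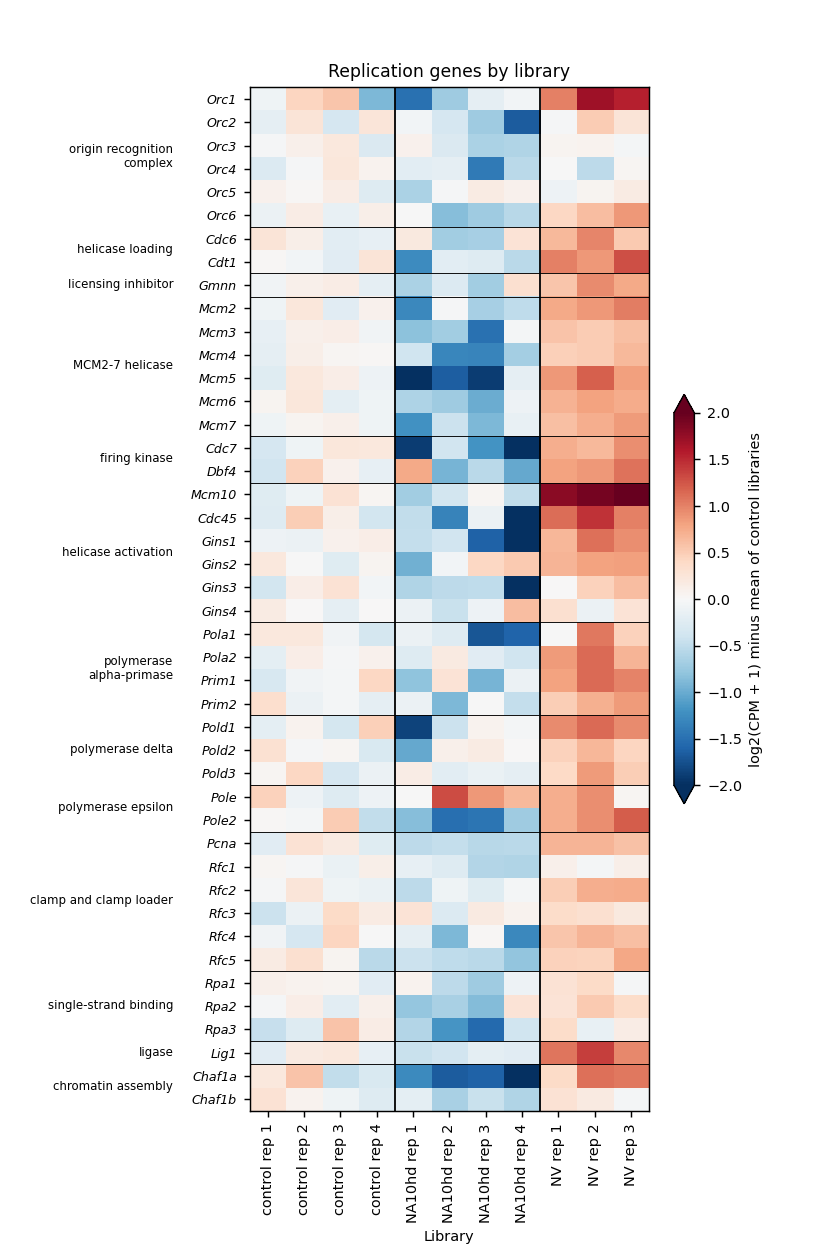
Each cell shows log2(CPM + 1) of 1 gene (vertical axis, grouped by role) in 1 library (horizontal axis) minus the mean of the 4 control libraries, with colors cut at -2 and 2. The 3 NV columns are mostly red (40 to 41 of 44 genes above the control mean) and the 4 NA10hd columns mostly blue (4 to 9 above it).

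Compared with control, 20 of the 44 genes were higher in NV HSC and called, and 0 were lower and called (0 also with DESeq2, and 0 lower at an unadjusted p under 0.05). The background for higher calls was 2.55% of 13462 tested genes. The median log2 fold change of the 44 genes was 0.65, against -0.01 over all tested genes, and 43 of 44 were higher by any amount (background 48.6%). In 29 genes all 3 NV libraries lay above all 4 control libraries (background 9.49%). DESeq2 called 23 and limma-voom 20 of the 44, all higher (background 3.4% and 2.78%). The exception in direction was Orc4, an origin recognition subunit, with a log2 fold change of -0.17 (SE 0.18) that did not pass the test. Mcm3 and Mcm4 had an adjusted p of 0.0138 and 0.0186 from edgeR, but their fold changes (log2 0.55 and 0.54) stayed under 1.5. Without NV replicate 2 the count of called genes was 8, and without NV replicate 3 it was 11. Calls over all tested genes were 269 and 263 in these fits, against 641 with every library. The 8 genes that stayed called with every library left out in turn were Cdt1, Mcm2, Mcm5, Mcm6, Mcm7, Mcm10, Pola2 and Lig1. Limited to libraries that held both sexes, 10 were called, and a fit of all 3 groups at once called 4 (Cdt1, Lig1, Mcm10 and Pola2). Over all tested genes these 2 fits called 301 and 155.

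Between NA10hd and control HSC, edgeR called 0 of the 44 genes, where the background for lower calls was 0.00766% (1 gene of 13060, Rrm1, which is not among the 44). The lowest adjusted p of the 44 was 0.201 (Mcm4). At an unadjusted p under 0.05, 17 of the 44 genes differed, 16 of them lower in NA10hd, against a background of 5.26% for lower genes. limma-voom called 0, and DESeq2 called 4 lower, the helicase subunits Mcm4 and Mcm5, the kinase Cdc7 and the histone chaperone subunit Chaf1a (background 0.873%). The median log2 fold change was -0.50, against 0.02 over all tested genes, and 40 of 44 genes were lower by any amount (background 48.5%). In 9 genes all 4 NA10hd libraries lay below all 4 control libraries (Mcm4, Mcm7, Cdc7, Gins1, Gins3, Pole2, Pcna, Rfc1 and Chaf1a; background 3.94%). The 4 genes higher by any amount were Gins2, Gins4, Pole and Rfc3. Without NA10hd replicate 4, edgeR called 1 of the 44 genes, Mcm5, and 5 of all tested genes.

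Set directly against NV, 21 of the 44 genes were lower in NA10hd HSC and called (background 2.79% of 13461), and 0 were higher and called (0 also with DESeq2, and 0 higher at an unadjusted p under 0.05). The median log2 fold change was -1.16, against 0.01 over all tested genes. In 43 of 44 genes NA10hd was lower by any amount (background 49.2%), and in 37 genes all 4 NA10hd libraries lay below all 3 NV libraries (background 11.3%). DESeq2 called 27 and limma-voom 26, all lower (background 4.48% and 4.06%). Leaving out NV replicate 3 gave a count of 7, leaving out NV replicate 2 gave 8, and leaving out NV replicate 1 gave 13. In the same order, 146, 153 and 229 of all tested genes were called, against 685 with every library. All NV libraries held both sexes and no NA10hd library did, so sex and group cannot be told apart in this comparison. Called with every library left out in turn were Cdt1, Mcm4, Mcm6, Mcm10, Pcna and Lig1. The called genes were Orc6, Cdt1, Mcm2 to Mcm7, Cdc7, Mcm10, Cdc45, Pola2, Prim1, Prim2, Pold1, Pole2, Pcna, Rfc2, Rfc5, Lig1 and Chaf1a. This comparison uses the same NV libraries as that of NV with control, so the values of both are set side by side for each gene below.

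**Figure D2:**
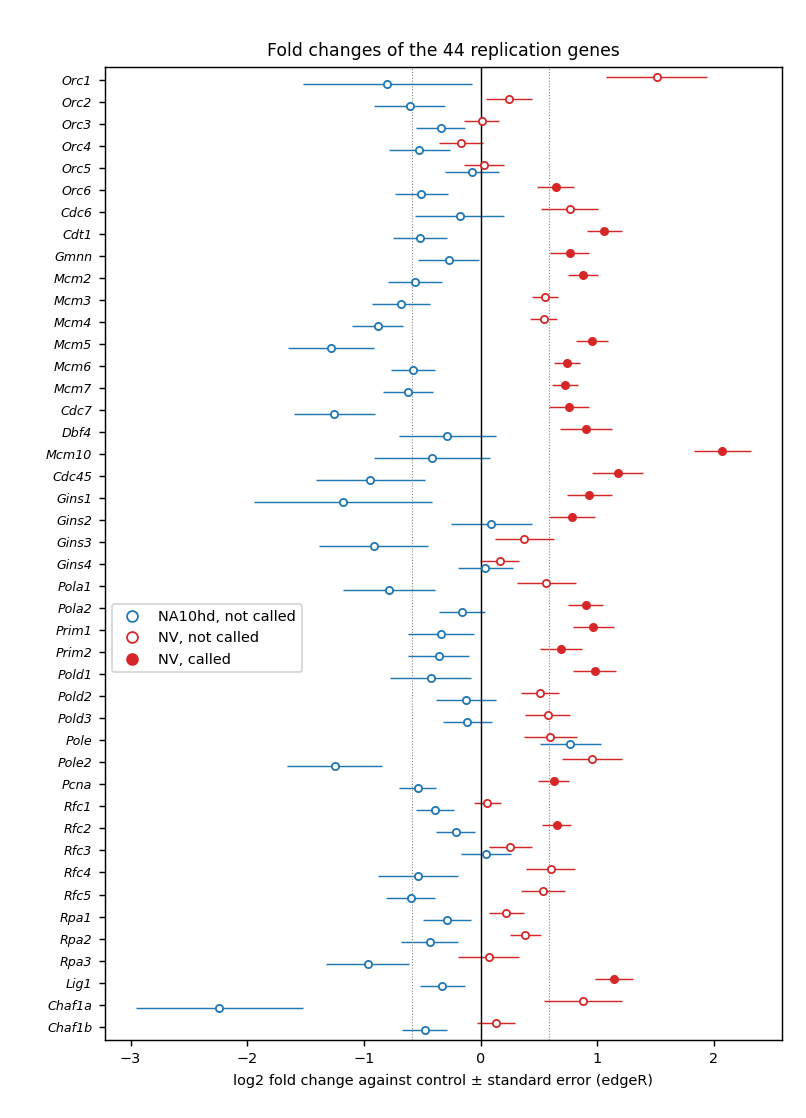
Points are edgeR log2 fold changes against control of the 44 genes (vertical axis) in NA10hd (blue) and NV (red), with bars of 1 standard error, filled where called, and dotted lines at a fold change of 1.5. In NV 20 genes are filled, all on the right, and in NA10hd 0 are filled, with 40 of 44 points left of 0.

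In the origin recognition complex, which marks origins and recruits the loaders, edgeR called Orc6 and no other subunit. Orc6 (ENSMUSG00000031697, chromosome 8, 87823531 to 87832177), the smallest subunit, had 50.4, 60.9, 49.8 and 60.1 CPM in the control libraries, 54.7, 30.1, 33.4 and 37.2 CPM in NA10hd and 73.8, 85.1 and 101 CPM in NV. All NV libraries lay above all others, while NA10hd replicate 1 fell within the control range. Its log2 fold change in NV was 0.64 (SE 0.16, adjusted p = 0.0353 from edgeR), and in NA10hd against NV it was -1.17 (SE 0.24, adjusted p = 0.0208). Orc1, the subunit whose level varies through the cell cycle, was counted low, with 110 to 218 counts per NV library, 12 to 77 per control library and 6 to 38 per NA10hd library. With a log2 fold change of 1.51 in NV (SE 0.44, adjusted p = 0.069 from edgeR) it missed the threshold, and DESeq2 called it. In NA10hd against NV, Orc1 had -2.34 (SE 0.64, adjusted p = 0.0596 from edgeR) and again missed the threshold. DESeq2 (adjusted p = 0.00312), limma-voom and the joint fit called it lower there. Orc2, Orc3, Orc4 and Orc5 had log2 fold changes from -0.17 to 0.24 in NV and from -0.61 to -0.08 in NA10hd, and none of them was called by edgeR or DESeq2.

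The helicase loaders are Cdc6 and Cdt1. Cdt1 (ENSMUSG00000006585, chromosome 8, 125091915 to 125097028) had 87.1, 83.2, 73.2 and 103 CPM in control, 35.4, 73.8, 71.8 and 59.2 CPM in NA10hd and 174, 158 and 212 CPM in NV libraries. The lowest NV library exceeded the highest control library by more than the control range. Its log2 fold change was 1.06 in NV (SE 0.15, adjusted p = 0.00212 from edgeR) and -1.59 in NA10hd against NV (SE 0.25, adjusted p = 0.00498). Cdc6, an ATPase that works with Cdt1, was at 11.6 to 16.4 CPM in control, 7.96 to 16.6 CPM in NA10hd and 19.9 to 27.7 CPM in NV, and it was not called by edgeR in NV (adjusted p = 0.0951) but was by DESeq2 (log2 fold change 0.77, adjusted p = 0.0489). Geminin (Gmnn, ENSMUSG00000006715, chromosome 13, 24843714 to 24853792), the inhibitor of Cdt1, had 38.6, 43.9, 45.2 and 35.8 CPM in control, 25.9, 33.4, 24.8 and 51.2 CPM in NA10hd and 60.2, 79.2 and 69.6 CPM in NV. It rose in NV by a log2 fold change of 0.76 (SE 0.16, adjusted p = 0.0186), so that the loader and its inhibitor were both higher. In NA10hd its libraries lay on both sides of the control range.

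All 6 subunits of the MCM2-7 helicase were higher in NV and lower in NA10hd than in control, by any amount. Mcm2, Mcm5, Mcm6 and Mcm7 were called in NV, and all 6 were called lower in NA10hd than in NV. Mcm5 (ENSMUSG00000005410, chromosome 8, 77633427 to 77652338) had the widest span among them as a ratio of its highest to its lowest library (11.3), with 141, 193, 183 and 154 CPM in control, 33.7, 52.2, 43.98 and 147 CPM in NA10hd and 303, 381 and 295 CPM in NV. NA10hd replicates 1 to 3 were below every control library, whereas replicate 4 lay within the control range. Its log2 fold change was 0.95 in NV (SE 0.14, adjusted p = 0.00254 from edgeR) and -1.28 in NA10hd (SE 0.37, adjusted p = 0.26). Without NA10hd replicate 4 it was -1.94 against control and was called. Between NA10hd and NV the log2 fold changes were -1.45 (Mcm2), -1.25 (Mcm3), -1.44 (Mcm4), -2.26 (Mcm5), -1.33 (Mcm6) and -1.36 (Mcm7), with adjusted p from 0.00361 to 0.0231. Mcm2, Mcm6 and Mcm7 had log2 fold changes of 0.87, 0.74 and 0.72 in NV, each with an SE of 0.11 to 0.13. In NA10hd the other 5 subunits ranged from -0.88 (Mcm4) to -0.56 (Mcm2) and none was called by edgeR. Mcm4 had 113 to 138 CPM in control and 50.8 to 96.7 CPM in NA10hd, ranges that did not overlap.

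Cdc7 is the catalytic subunit and Dbf4 the activator of the kinase that fires origins. Cdc7 (ENSMUSG00000029283, chromosome 5, 107393341 to 107413451) had 42.6, 50.7, 63.1 and 62.5 CPM in control, 13.8, 41.1, 23.2 and 12.8 CPM in NA10hd and 90.2, 85.1 and 104 CPM in NV. The 3 groups did not overlap. The log2 fold change was 0.76 in NV (SE 0.17, adjusted p = 0.0212 from edgeR), -1.26 in NA10hd (SE 0.35, adjusted p = 0.241) and -2.03 in NA10hd against NV (SE 0.37, adjusted p = 0.0108). DESeq2 called the NA10hd decrease of Cdc7 with an adjusted p of 0.0358. Dbf4 rose in NV by 0.90 on the log2 scale (SE 0.22, adjusted p = 0.035), while in NA10hd it ranged from 10.8 to 39.6 CPM around a control range of 17.3 to 32.1 CPM.

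Mcm10 (ENSMUSG00000026669, chromosome 2, 4910760 to 4933837), a scaffold that joins the helicase to the primase, had the largest log2 fold change of the 44 genes in NV. It had 5.54, 6.35, 8.45 and 6.99 CPM in control, 3.81, 5.01, 6.999 and 4.54 CPM in NA10hd and 26.1, 28.4 and 32.7 CPM in NV. NV libraries stood apart from all others, which overlapped among themselves. These levels rest on 31 to 106 counts per control library and 328 to 419 per NV library. The log2 fold change was 2.07 in NV (SE 0.25, adjusted p = 0.00103 from edgeR), -0.42 in NA10hd (SE 0.50, adjusted p = 0.794) and -2.51 in NA10hd against NV (SE 0.37, adjusted p = 0.00376). Cdc45, which binds the ring as part of the active helicase, rose in NV by 1.17 (SE 0.22, adjusted p = 0.00985) and had -2.13 in NA10hd against NV (SE 0.49, adjusted p = 0.0322). Of the 4 GINS subunits, Gins1 and Gins2 were called in NV, at log2 fold changes of 0.93 and 0.79, and Gins3 and Gins4 (0.37 and 0.16) were not. Gins1 had 0 counts in NA10hd replicate 4 and 72 to 200 counts in the other 3 NA10hd libraries. For Gins2, 67.3% of the exon bases also belong to Gse1 on the opposite strand, and the strand setting of the counting is not given in the sources used here. Its counts may therefore hold reads of Gse1 or lack reads that fall on both genes. In the other members the share of exon bases overlapped by another gene was at most 12.65% (Rfc4).

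Polymerase alpha-primase starts each new strand. Pola2 (ENSMUSG00000024833, chromosome 19, 5940543 to 5964206), its regulatory subunit, had 52.2, 66.1, 59.1 and 63.9 CPM in control, 50.02, 68.3, 50.98 and 45.6 CPM in NA10hd and 109, 132 and 97.2 CPM in NV. NV lay above the other groups, which covered nearly the same range. Its log2 fold change was 0.90 in NV (SE 0.15, adjusted p = 0.0052 from edgeR), -0.16 in NA10hd (SE 0.20, adjusted p = 0.799) and -1.08 in NA10hd against NV (SE 0.21, adjusted p = 0.0152). The primase subunits Prim1 and Prim2 rose in NV by 0.96 (SE 0.18) and 0.69 (SE 0.18), and both were called lower in NA10hd than in NV (-1.32 and -1.06). The catalytic subunit Pola1 was not called in NV (log2 fold change 0.56, SE 0.25, adjusted p = 0.247), and its NV libraries spread from 29.5 to 62.4 CPM.

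Pold1 (ENSMUSG00000038644, chromosome 7, 51788116 to 51804219), the catalytic subunit of polymerase delta on the lagging strand, had 58.3, 70.4, 52.7 and 94.2 CPM in control, 17.8, 49.4, 70.6 and 65.6 CPM in NA10hd and 130, 149 and 130 CPM in NV. NV was higher than every control library, and NA10hd replicate 1 was the lowest of all. The log2 fold change was 0.98 in NV (SE 0.19, adjusted p = 0.00998 from edgeR), -0.43 in NA10hd (SE 0.35, adjusted p = 0.664) and -1.42 in NA10hd against NV (SE 0.36, adjusted p = 0.0449). The accessory subunits Pold2 and Pold3 had 0.51 and 0.57 in NV, and -0.12 and -0.11 in NA10hd, none of them called by edgeR or DESeq2. In NA10hd against NV, DESeq2 called Pold3 lower (log2 fold change -0.68, adjusted p = 0.0162) and edgeR did not.

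Polymerase epsilon is the leading strand polymerase, and edgeR called neither of its subunits Pole and Pole2 against control. Its catalytic subunit Pole (ENSMUSG00000007080, chromosome 5, 110715325 to 110766493) had 89.6, 59.9, 53.9 and 59.9 CPM in control, 64.4, 161, 118 and 102 CPM in NA10hd and 107, 124 and 66.4 CPM in NV. Pole was the single gene of the 44 with a higher level in NA10hd than in NV, at a log2 fold change of 0.16 (SE 0.30, adjusted p = 0.84 from edgeR), and this turned to -0.06 without NA10hd replicate 2 and likewise without NV replicate 3. Against control it had 0.77 in NA10hd (SE 0.26, adjusted p = 0.302) and 0.60 in NV (SE 0.23, adjusted p = 0.16), neither called. The accessory subunit Pole2 (ENSMUSG00000020974, chromosome 12, 70302766 to 70329177) had 15.7, 15.1, 22.5 and 10.8 CPM in control, 8.11, 4.77, 5.01 and 9.08 CPM in NA10hd and 26.3, 30.3 and 37.3 CPM in NV. The 3 groups did not overlap for Pole2. Its log2 fold change was -1.25 in NA10hd (SE 0.41, adjusted p = 0.287), 0.95 in NV (SE 0.26, adjusted p = 0.0545) and -2.23 between them (SE 0.37, adjusted p = 0.00641), of which edgeR called only the last. DESeq2 also called the higher level of Pole2 in NV than in control (log2 fold change 0.96, adjusted p = 0.0136).

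**Figure D3:**
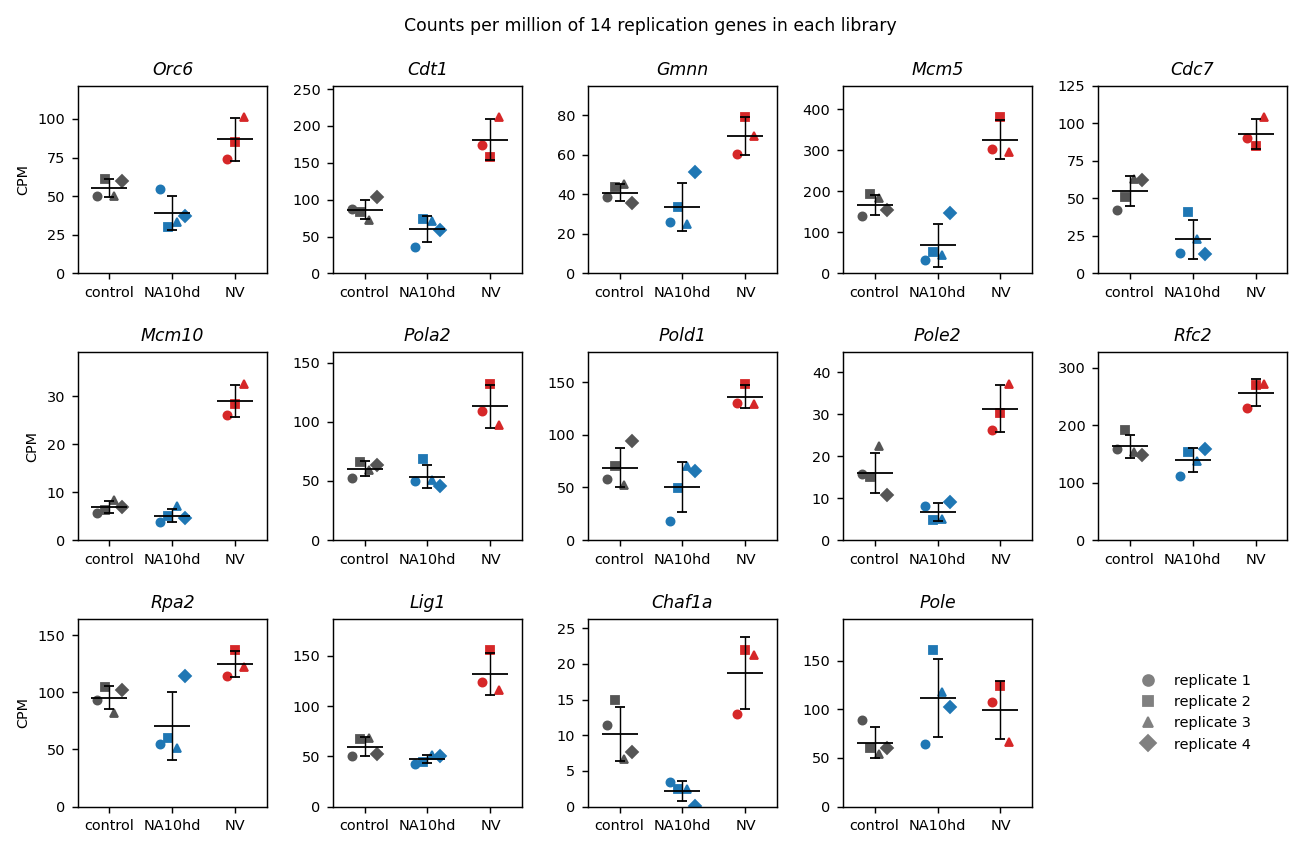
CPM (vertical axes, from 0) of 14 genes in each library, by group (horizontal axes), with the replicate shown by the marker, and horizontal and vertical bars for the mean ± SD of 4 control, 4 NA10hd and 3 NV libraries. All 3 NV libraries lie above all others for 12 of the genes, the exceptions being Pole and Chaf1a, and NA10hd replicate 4 is the highest NA10hd library for Mcm5, Rpa2, Gmnn, Rfc2 and Pole2.

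PCNA, the sliding clamp that tethers the polymerases, was the most abundant transcript of the 44, with 388, 558, 515 and 385 CPM in control, 315, 327, 311 and 314 CPM in NA10hd and 731, 731 and 682 CPM in NV. The 3 groups did not overlap. Pcna (ENSMUSG00000027342, chromosome 2, 132074898 to 132079050) rose in NV by 0.63 on the log2 scale (SE 0.13, adjusted p = 0.0184 from edgeR) and was lower in NA10hd than in NV (log2 fold change -1.18, SE 0.13, adjusted p = 0.000779), the smallest adjusted p of the 44 in that comparison. The annotation holds the pseudogenes Pcna-ps1 and Pcna-ps2, with which reads of Pcna could be shared, since the treatment of multi-mapped reads is not given in the sources used here. In the clamp loader, which opens PCNA on DNA, Rfc2 (ENSMUSG00000023104, chromosome 5, 135058560 to 135074198) had 159, 191, 153 and 148 CPM in control, 112, 153, 137 and 159 CPM in NA10hd and 229, 269 and 272 CPM in NV. Rfc2 rose in NV by 0.65 (SE 0.12, adjusted p = 0.0101) and had -0.88 in NA10hd against NV (SE 0.17, adjusted p = 0.0149), with the NA10hd and control ranges overlapping. Rfc5 was called lower in NA10hd than in NV (-1.15, SE 0.19), while edgeR called Rfc1, Rfc3 and Rfc4 in none of the comparisons. DESeq2 called Rfc4 lower in NA10hd than in NV (log2 fold change -1.13, adjusted p = 0.0256), as did limma-voom and the joint fit. For Rfc1, the largest loader subunit, the log2 fold change was 0.06 in NV (SE 0.11) and -0.39 in NA10hd (SE 0.16).

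Neither edgeR nor DESeq2 called a subunit of replication protein A, which coats single-stranded DNA, in any comparison. Rpa2 was called lower in NA10hd than in NV by limma-voom, by the joint fit, with a replicate block and without NA10hd replicate 4. Rpa2 (ENSMUSG00000028884, chromosome 4, 132324247 to 132334667) had 92.97, 104, 82.1 and 102 CPM in control, 54.9, 60.4, 51.7 and 115 CPM in NA10hd and 115, 137 and 122 CPM in NV. NA10hd replicate 4 stood above all control libraries and the other 3 NA10hd libraries below them. The log2 fold change of Rpa2 was 0.38 in NV (SE 0.13, adjusted p = 0.13 from edgeR), that of Rpa1 was 0.22 and that of Rpa3 was 0.07. In NA10hd the 3 subunits had -0.29 (Rpa1), -0.44 (Rpa2) and -0.97 (Rpa3).

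DNA ligase I (Lig1, ENSMUSG00000056394, chromosome 7, 13862632 to 13896782), which seals the fragments of the lagging strand, had 50.1, 66.8, 68.3 and 52.6 CPM in control, 42.8, 44.8, 51.1 and 50.2 CPM in NA10hd and 124, 156 and 116 CPM in NV. Each NV library was above all control libraries, while NA10hd replicates 1 and 2 lay below all control libraries and replicates 3 and 4 at the low end of the control range. The log2 fold change was 1.14 in NV (SE 0.16, adjusted p = 0.00212 from edgeR), -0.33 in NA10hd (SE 0.19, adjusted p = 0.524) and -1.49 between them (SE 0.19, adjusted p = 0.00157).

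In chromatin assembly factor 1, the large subunit Chaf1a (ENSMUSG00000002835, chromosome 17, 56179827 to 56206973) had 11.4, 15.0, 6.62 and 7.67 CPM in control, 3.44, 2.39, 2.51 and 0.142 CPM in NA10hd and 12.97, 21.9 and 21.3 CPM in NV. All NA10hd libraries were below all others, and NA10hd replicate 4 held a single count where the other 3 held 28 to 30. Its log2 fold change in NA10hd was -2.24 (SE 0.72, adjusted p = 0.287 from edgeR, adjusted p = 0.0372 from DESeq2), the lowest of the 44. Without each library in turn it ranged from -2.54 to -1.87. Against NV it was -3.13 in NA10hd (SE 0.71, adjusted p = 0.0307). In NV against control it had 0.88 (SE 0.33, adjusted p = 0.163) and was not called. Chaf1b, the partner subunit, had -0.48 in NA10hd (SE 0.19, adjusted p = 0.36) and 0.13 in NV (SE 0.16, adjusted p = 0.722).

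By role, the mean log2 difference from control in NV was highest for the ligase (1.14 ± 0.22), helicase loading (0.89 ± 0.050) and helicase activation (0.89 ± 0.11), and lowest for the origin recognition complex (0.37 ± 0.13) and single-strand binding (0.24 ± 0.073), each as mean ± SD of 3 libraries. In NA10hd it was lowest for chromatin assembly (-1.21 ± 0.50), the firing kinase (-0.90 ± 0.42) and MCM2-7 (-0.85 ± 0.42), each over 4 libraries. The mean for polymerase epsilon (-0.22 ± 0.18) was that of 2 genes on opposite sides of control, Pole and Pole2 (edgeR log2 fold changes of 0.77 and -1.25). The roles were small (1 to 6 genes), and neighbors in these orders mostly differed by less than the spread between libraries, as did helicase activation and the firing kinase (0.84 ± 0.15) in NV. NA10hd replicate 4, the library of female RNA, was above the other 3 NA10hd libraries in 13 of the 44 genes and below them in 11. Of 4 alike libraries, each would be above, or below, the other 3 in about 1 in 4 genes. Over the 44 genes the mean difference of replicate 4 from control, -0.62, was next to those of the other 3 NA10hd libraries (-0.60 to -0.50).

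Levels between genes were compared per exon length, as RPKM. In control HSC the highest were Pcna with 192 ± 37.0 RPKM, Rfc2 with 107 ± 12.7, Mcm6 with 80.7 ± 10.3 and Mcm3 with 61.3 ± 6.06 (SD, n = 4). The lowest were Mcm10 with 0.888 ± 0.16 and Orc1 with 0.905 ± 0.441, which did not differ beyond their spread. Within MCM2-7, control levels ran from 34.7 ± 2.43 RPKM (Mcm7) to 80.7 RPKM (Mcm6). Mcm7 and Mcm4 (35.7 ± 3.01) did not differ beyond their spread, nor did Mcm5 (47.96 ± 6.96) and Mcm2 (53.3 ± 7.5). Orc1 was far below Orc6 (33.5 ± 3.64). Pcna, Rfc2 and Mcm6 held the 3 highest places in all 3 groups. Mcm5 moved from place 6 in control to place 14 in NA10hd and 5 in NV, and Pole from place 37 to 25 and 35.

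**Figure D4:**
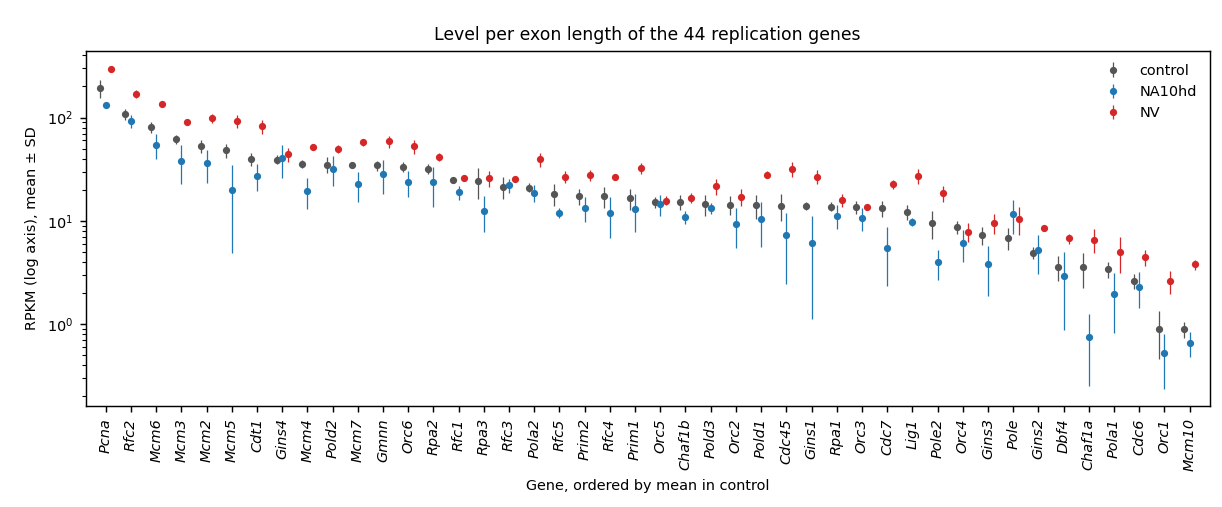
RPKM (vertical axis, log scale) of the 44 genes (horizontal axis, ordered by the control mean), as mean ± SD of 4 control, 4 NA10hd and 3 NV libraries. Levels run from 192 RPKM (Pcna) to 0.888 RPKM (Mcm10) in control, and NV points (red) lie above control points for 43 genes.

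An E2F match in the promoter window was about as frequent among genes called in NV as among the others. Of the 15 called genes with a window, 6 held a match (40.0%), and of the 21 genes that were not called, 9 held one (42.9%). Among those shown above, Mcm5, Mcm6, Cdt1, Lig1 and Pold1 were called in NV, Mcm3, Orc1 and Pole2 were not called there by edgeR, and Mcm10, whose window ends inside a partial match, had the largest change.

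Further genes of replication were counted from a list of 34 (initiation, fork protection, further polymerase and nuclease subunits, other clamp loaders, histone chaperones). In NV 33 were tested, with a median log2 fold change of 0.55. Of them 30 were higher by any amount (background 48.6%) and 11 were called higher (background 2.55%). The 4 with the smallest p were Dnmt1, the maintenance DNA methyltransferase (0.97, SE 0.14), the histone chaperone Asf1b (1.69, SE 0.25), the clamp unloader Atad5 (1.43, SE 0.25) and Wdhd1, which links helicase and primase (1.12, SE 0.21). In NA10hd 32 were tested, the median was -0.36, and 28 were lower (background 48.5%). EdgeR and DESeq2 called 0 of them (9 had an unadjusted p under 0.05). Against NV, 11 of 33 were called lower in NA10hd (background 2.79%) at a median of -0.88. Recql4, a helicase named here for its values, was 1 of the 11. It had 0 counts in all 4 NA10hd libraries, 0.179 to 2.18 CPM in control and 2.31 to 5.68 CPM in NV. In NA10hd against NV it passed the low-count filter only through NV, so its call there carries no weight. It was not called in NV against control (adjusted p = 0.202 from edgeR) and not tested in NA10hd against control. With 3 counts per library as the floor, Recql4 was at least 11.1-fold lower in NA10hd than in NV.

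Of 17 regulators of the passage from G1 to S phase, 6 were called higher in NV (median 0.60, background 2.55%). Called lower in NA10hd than in NV were 7 (background 2.79%). In NA10hd against control edgeR called 0 (median -0.80). DESeq2 called 3 lower there and 6 had an unadjusted p under 0.05 (backgrounds for lower genes 0.873% and 5.26%). E2f8, an atypical E2F repressor, had 5.88 ± 2.22 CPM in control and 33.7 ± 4.31 CPM in NV (log2 fold change 2.49, SE 0.31). Cyclin A2 (Ccna2) had 32.5 ± 19.0 CPM in control, 8.37 ± 6.14 CPM in NA10hd and 134 ± 23.4 CPM in NV (SD, n = 4, 4 and 3). The kinase Cdk2 and the E2F partner Tfdp1 were called higher in NV at 0.76 and 0.60. Of 10 mitotic genes, 9 were called higher in NV (median 1.89, background 2.55%). In NA10hd against control edgeR called 0 (median -1.81). DESeq2 called 3 lower there and 9 had an unadjusted p under 0.05 (backgrounds for lower genes 0.873% and 5.26%). In NA10hd against NV edgeR called all 10 lower and DESeq2 8 (median -3.69, backgrounds 2.79% and 4.48%). The proliferation marker Mki67 had 38.0 ± 11.4 CPM in control (SD, n = 4) and a mean of 11.3 CPM in NA10hd, and ranged from 118 to 160 CPM in NV. Summed mitotic transcripts were 175 to 369 CPM in control, 48.0 to 140 CPM in NA10hd and 901 to 1133 CPM in NV. They moved in the same direction as the 44 genes in these libraries, and their part in the results was not tested.

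**Figure D5:**
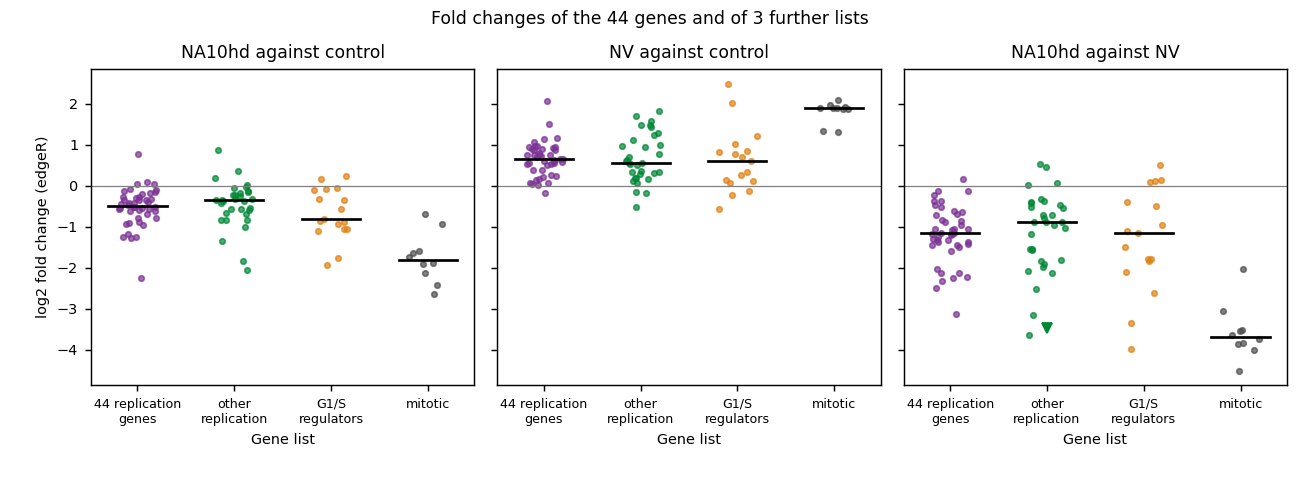
Points are edgeR log2 fold changes (vertical axis) of the tested genes of 4 lists (horizontal axis) in 3 comparisons, with a line at each median. The median of the mitotic genes lies farther from 0 than that of the 44 genes in each panel (1.89 and 0.65 in NV against control), and the triangle marks Recql4 at its bound of -3.48.

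Marker genes of HSC and of other cells were read beside these results. Of 10 HSC-defining markers, 3 were called lower in NV (Procr, Mllt3 and Fgd5, at -0.72, -0.74 and -1.13) and Ly6a higher (0.70). Over all 13462 tested genes, edgeR called 641 in either direction. DESeq2 called 4 of the markers lower and 1 higher. In NA10hd 0 were called by edgeR, 1 by DESeq2, and 3 had an unadjusted p under 0.05. In NA10hd against NV, 6 of the 10 were called higher (among them Procr, Fgd5, Hoxb5 and Mllt3, from 1.18 to 1.93) and 0 lower by edgeR, and DESeq2 likewise called 6 higher and 0 lower. Over all 13461 tested genes, edgeR called 685 in either direction. Of 20 markers of cells outside the gate, 9 were tested in NV and 3 were called higher (background 2.55%). They were the megakaryocyte genes Pf4 (2.91, SE 0.34) and Itga2b (1.30, SE 0.23) and the erythroid factor Klf1 (2.17, SE 0.50). The same 3 were called lower in NA10hd than in NV, at -3.42 (Pf4), -1.57 (Itga2b) and -4.25 (Klf1), of 10 tested (background 2.79%). The summed level of the 20 was 222 to 243 CPM in control, 207 to 260 CPM in NA10hd and 302 to 605 CPM in NV, and 8 to 12 of the 20 had 0 counts in a library. In control most of this sum was Cd34 (116 ± 15.9 CPM) and Itga2b (58.4 ± 10.6 CPM; SD, n = 4), which HSC can express too. Cd3e and Ebf1, which define T cells and B cells, were at 0 in all libraries. Pf4, Itga2b and Klf1 moved with the replication genes in both comparisons with NV, but the list as a whole did not. Its median was 0.13 in NV against control (5 higher, 4 lower) and -0.16 in NA10hd against NV (4 higher, 6 lower). In NV, Pf4 (158 ± 81.0 CPM) and Itga2b (145 ± 50.6 CPM; SD, n = 3) made up much of the sum. The part of such cells in the results was not tested.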

How the data were processed

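RNA was measured in 11 libraries of sorted HSC (4 control, 4 NA10hd, 3 NV). Per the labels, Nextera XT libraries of amplified cDNA were read on a NextSeq500. The authors aligned to NCBIM37 with HISAT2, counted with featureCounts and deposited raw counts per Ensembl gene, without normalization. Tool versions, strand setting and treatment of multi-mapped reads are not given in the sources used here. Symbols, positions and exon lengths came from GENCODE of that build (37205 of 37991 IDs). Libraries held 5464815 to 14283008 counts.

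Each comparison was fitted on its own libraries with edgeR 4.0.16 (R 4.3.3), TMM factors, the default low-count filter and quasi-likelihood tests, and p was adjusted by Benjamini-Hochberg over all tested genes. Alternatives were DESeq2 1.42.0 (the tool of the study's methods), limma-voom (limma 3.58.1), DESeq2's size factors, no filter, a joint fit of the groups, a replicate block, no fold threshold, sex-matched libraries and leaving out each library. The code was tested on simulated data. Figures used matplotlib 3.10.9.

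Every library is given for the member of each of 13 roles with the smallest p in NV against control and for members whose NA10hd against NV change opposes the median. Pcna and other single values were chosen after they were seen. Members and lists were chosen with earlier results of these data known.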

Additional observations from a re-analysis of the deposited data

Results flagged for a closer look

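In groups of 4 libraries, 3 values stood apart from the rest of their group by Dixon's criterion, in which the gap of the extreme library to its nearest neighbor is divided by the range of the group. There were 30 such groups tested, and chance gives about 1 in 20. For Mcm5 in NA10hd, replicate 4 was the highest with a ratio of 0.836, at 147 CPM where the other 3 had 33.7 to 52.2 CPM. For Rpa2 in NA10hd, replicate 4 was again the highest with a ratio of 0.861, at 115 CPM where the others had 51.7 to 60.4 CPM. For Pole in control, replicate 1 was the highest with a ratio of 0.833, at 89.6 CPM where the others had 53.9 to 59.9 CPM.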

How the results depend on the processing

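In NA10hd against control, the number of the 44 genes called was 0 with edgeR, 4 with DESeq2, and 0 to 1 with each library left out. In NV against control it was 20, but 4 with all 3 groups in one fit and 13 with a replicate block. It was 10 with libraries matched for sex and 8 to 19 with each library left out. Over all tested genes, in the same order, 641, 155, 432, 301 and 263 to 643 were called. The median of the 44 genes in that comparison ranged from 0.61 to 0.75 with each library left out. In NA10hd against NV the number was 21, and 7 to 24 with each library left out (over all tested genes 685, and 146 to 771). Leaving out a library lowers the number of samples, and for the other changes the cause was not tested. Pole in NA10hd against NV ranged from -0.063 to 0.36 with each library left out, and was below 0 without NV replicate 3 (-0.063) and without NA10hd replicate 2 (-0.06). Of the log2 fold changes of 14 genes, those of the rule for named genes, in the 3 comparisons under the alternatives run, 522 kept their direction and side of the threshold, 48 lost it, 16 gained it and 2 turned (both Pole). Replicate numbers did not pair the libraries: same-numbered libraries had correlations of their deviations from -0.109 to -0.031 in NA10hd against control, -0.04 to 0.034 in NV against control and -0.018 to 0.017 in NA10hd against NV. With the replicate block, 0, 13 and 23 of the 44 genes were called in these comparisons, and 0, 432 and 581 of all tested genes. Libraries were matched for sex only against control, since no NA10hd library held both sexes as all NV libraries did. Counting error weighs most on Gins1, Chaf1a, Orc1, Gins3, Cdc45 and Mcm10, whose lowest counts were 0, 1, 6, 16, 27 and 31. The first 5 of these were in NA10hd replicates 1 and 4, which were not the shallowest libraries but had the fewest genes with a count.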
